A study of Mus musculus with 21 samples.

Results

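Gene expression in lung tumours of mice fed silibinin together with indole-3-carbinol was compared with that in tumours of mice fed silibinin without it, across all genes of the count table. The comparison used 3 libraries of each diet, 6 of the 21 in the series, assigned by the treatment given in the sample labels. All mice were female A/J, a strain prone to lung adenoma, and were sampled at 22 weeks. Mice of both diets had received 1 intraperitoneal injection of the tobacco carcinogen NNK at 100 mg/kg, and from 1 week later a weekly intranasal instillation of the bacterial endotoxin LPS, 5 µg in 50 µL. The silibinin group (Sil) had silibinin in the diet at 20 µmol/g. The combination group (Sil_I3C) had silibinin and indole-3-carbinol, each at 20 µmol/g, so the groups differed by indole-3-carbinol and shared NNK, LPS and silibinin. Beside them stand 3 libraries of mice given NNK and LPS with no agent in the diet (NNK_LPS) and 3 of mice given NNK, LPS and indole-3-carbinol at 20 µmol/g without silibinin (I3C). The RNA of these 4 groups was extracted from tumours dissected out of the lung and pooled from 3 mice per group. It is not stated if a group's libraries are separate mice or portions of 1 pool, so each p-value below measures the spread between libraries, which may be technical.

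Indole-3-carbinol is a breakdown product of a glucosinolate of cabbage and broccoli. In the acid of the stomach it condenses to products that bind the aryl hydrocarbon receptor (AhR), a transcription factor that pairs with ARNT, binds DNA at sites with the core GCGTG and turns on the CYP1 genes of xenobiotic oxidation. A second sensor, NRF2, acts at antioxidant response elements in the genes of glutathione synthesis, glutathione transfer and quinone reduction, and several genes answer to both. Silibinin is a flavonolignan of milk thistle. P450s, carbonyl reductases and glucuronosyltransferases also metabolise NNK.

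The libraries held 16.2 to 17.2 M counts in Sil and 21.4 to 25.3 M in Sil_I3C. Counts of mt-Atp8 divided by those of mt-Atp6, its neighbour on the mitochondrial genome, placed the 21 libraries in classes below 0.05, from 0.05 to 0.1 and above 0.1. The ratio was 0.0794 to 0.0876 in Sil and 0.120 to 0.135 in Sil_I3C, so for this comparison the class of library and its depth cannot be told apart from the diet. NNK_LPS and I3C 1 were in the middle class, and I3C 2 and I3C 3 in the highest. Of the lung markers, Sftpc of alveolar type 2 cells stood at 17880 to 35013 CPM (counts scaled to the normalised library size, the usual CPM unit) and Scgb1a1 of club cells at 15638 to 24242 CPM in the 6 libraries. Of 13 hepatocyte markers, listed after the data were seen, 3 were high enough to test and the list summed to 4.70 to 5.84 CPM in Sil and 3.19 to 4.09 CPM in Sil_I3C.

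Few genes differed between tumours with and without indole-3-carbinol beside silibinin, and the higher ones included many enzymes of xenobiotic metabolism. Of 15770 genes tested, 42 (0.266%) were called at an adjusted p under 0.05 by edgeR's quasi-likelihood test with Benjamini-Hochberg adjustment. In Sil_I3C 23 genes (0.146%) were higher and 19 (0.12%) were lower, and 1719 of the 15770 (10.9%) had an unadjusted p under 0.05. The 3 libraries of one group lay apart from the 3 of the other in all 42, which were called on these same libraries, and in 14.8% of all tested genes (7.41% higher, 7.42% lower). Of the 23, 10 were members of the AhR, NRF2 or conjugation lists described below, which together had 58 tested genes, and 0 of the 58 were called lower. These lists were written with earlier results of these data known. The difference was at least 2-fold for 14 of the higher and 7 of the lower genes. The number of calls depended on the fit. With only the compared groups it was 9, of which 9 were higher and 0 lower, so none of the 19 lower genes was called there. It was 179 with DESeq2, 21 without Sil 1, 64 without Sil 2, 27 without Sil_I3C 1, 24 without Sil_I3C 2, and 0 with a term for the ratio class. The genes Cyp1a1, Nqo1, Ces1f, Gpx2, Gsta3, Aox1 and the pseudogene Gm10260 were called under every alternative other than the class term, and each of the other 35 was lost under at least 1 further alternative.

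The bases upstream of 5 higher genes that the results below turn on are shown first, because the core of the AhR site and that of the antioxidant response element (TGACNNNGC) can be looked for in them. Each is the 250 bases before the start site listed by RefSeq on GRCm38.p6, written from 5′ to 3′ on the strand of the gene, with matches to a core on either strand in capitals. Cyp1a1 (chr9:57697363-57697612, plus strand) encodes the P450 taken as the classical AhR target, Nqo1 (chr8:107403206-107403455, minus strand) a quinone reductase, Gstm1 (chr3:108017974-108018223, minus strand) and Gsta3 (chr1:21240335-21240584, plus strand) glutathione transferases, and Lrat (chr3:82903975-82904224, minus strand) the enzyme that esterifies retinol.
Cyp1a1: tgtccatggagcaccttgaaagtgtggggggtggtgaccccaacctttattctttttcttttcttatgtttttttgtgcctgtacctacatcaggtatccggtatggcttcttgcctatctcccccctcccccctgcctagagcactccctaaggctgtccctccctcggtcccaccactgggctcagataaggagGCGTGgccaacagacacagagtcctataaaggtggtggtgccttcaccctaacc
Nqo1: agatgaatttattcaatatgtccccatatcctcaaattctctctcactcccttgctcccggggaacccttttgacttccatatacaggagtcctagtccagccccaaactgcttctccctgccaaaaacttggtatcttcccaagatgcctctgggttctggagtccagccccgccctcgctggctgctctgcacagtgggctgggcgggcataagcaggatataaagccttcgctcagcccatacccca
Gstm1: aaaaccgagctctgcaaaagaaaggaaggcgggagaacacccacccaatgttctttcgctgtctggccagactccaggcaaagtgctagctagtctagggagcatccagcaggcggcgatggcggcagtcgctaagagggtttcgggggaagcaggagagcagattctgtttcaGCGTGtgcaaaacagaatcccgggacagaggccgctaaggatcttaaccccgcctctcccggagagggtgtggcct
Lrat: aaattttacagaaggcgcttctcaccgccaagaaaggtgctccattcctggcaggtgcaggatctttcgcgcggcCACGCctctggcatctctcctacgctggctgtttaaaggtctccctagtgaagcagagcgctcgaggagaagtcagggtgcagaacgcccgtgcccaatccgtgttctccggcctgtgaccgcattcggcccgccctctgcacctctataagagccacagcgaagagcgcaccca
Gsta3: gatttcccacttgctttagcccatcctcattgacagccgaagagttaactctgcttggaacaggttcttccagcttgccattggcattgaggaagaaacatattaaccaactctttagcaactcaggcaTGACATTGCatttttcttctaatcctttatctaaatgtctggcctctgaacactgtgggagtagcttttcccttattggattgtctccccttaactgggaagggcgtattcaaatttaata
Cyp1a1 had 1 AhR core, with its first base at -54 from the start, Gstm1 1 at -76 and Lrat 1 at -175. Gsta3 had the antioxidant core, at -121, and Nqo1 had neither in this window. A window was listed for 16 of the 23 higher and 13 of the 19 lower genes. The AhR core was in 8 of the 16 and in 6 of the 13, and in 28.2% of all 32851 windows. The antioxidant core was in 1 of the 16 (Gsta3) and 0 of the 13, and in 10.2% of all windows. A match describes the letters only, and elements further upstream lie outside these windows.

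Cyp1a1 had the highest log2 fold change of the called genes. It stood at 1.11, 3.58 and 1.61 CPM in Sil 1 to 3 and at 153, 97.0 and 141 CPM in Sil_I3C 1 to 3. The lowest Sil_I3C library was far above the highest Sil library, and the fitted fold was 61.7 (log2 fold change 5.95 ± 0.82 SE, adjusted p = 0.00350). The summed counts behind it were 105 in Sil and 9396 in Sil_I3C. Normal lung of untreated mice was not uniform for this gene, at 20.1, 21.5 and 0.904 CPM in the 3 control libraries.

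Nqo1, a reductase that detoxifies quinones without forming a semiquinone, stood at 4.43, 4.24 and 5.00 CPM in Sil and at 34.9, 37.1 and 25.4 CPM in Sil_I3C. It was 7.11-fold higher (log2 fold change 2.83 ± 0.24 SE, adjusted p = 1.75e-05), the smallest adjusted p of the comparison. Aldh3a1, an aldehyde dehydrogenase induced through AhR, was at 21.7, 22.1 and 14.1 CPM in Sil and at 61.2, 71.7 and 56.7 CPM in Sil_I3C, 3.27-fold higher (1.71 ± 0.19, adjusted p = 0.000284). In both genes the groups were well separated.

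The AhR pathway list held 16 genes, of which 15 were tested, 3 were called higher (Cyp1a1, Nqo1, Aldh3a1) and 0 lower. Its median log2 fold change was 0.20, against 0.01 over all genes tested. Fits of fewer groups, DESeq2 and leaving out 1 library gave 2 to 4 calls, and the ratio-class term 0. Among the members that did not pass, the largest differences were in Ahrr, Cyp1b1 and Gsta1. Ahrr, the repressor that competes with AhR for ARNT, stood at 0.738, 0.896 and 0.476 CPM in Sil and at 2.44, 2.42 and 1.34 CPM in Sil_I3C (1.55 ± 0.40, adjusted p = 0.141). Cyp1b1, the extrahepatic CYP1 enzyme, stood at 20.8, 31.6 and 11.8 CPM in Sil and at 44.8, 60.6 and 49.2 CPM in Sil_I3C (1.27 ± 0.31, adjusted p = 0.108). Gsta1, a glutathione transferase, was at 0.554 to 1.19 CPM in Sil and 1.47 to 2.90 CPM in Sil_I3C (1.34 ± 0.38, adjusted p = 0.177). The libraries of the groups did not overlap in any of these 3 genes, but the differences missed the threshold over all genes. In the list 8 of the 15 tested genes, the 3 called ones included, lay higher without overlap and 0 lower, against 7.41% and 7.42% of all tested genes.

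The other list members reported here, both the receptor machinery and further genes of the pathway, showed no call and smaller differences. The log2 difference was 0.08 ± 0.14 for Ahr, -0.04 ± 0.06 for its partner Arnt and 0.02 ± 0.09 for Nfe2l2, which encodes NRF2. Tiparp, an ADP-ribosyltransferase that limits AhR activity, differed by 0.19 ± 0.13, and the glucuronosyltransferases Ugt1a6a and Ugt1a7c by 0.20 ± 0.30 and 0.40 ± 0.16. Lpcat2, a lysophospholipid acyltransferase, differed by 0.18 ± 0.26, and Slc7a5, an amino acid transporter, by -0.24 ± 0.27. The signs for Ahr, Arnt, Nfe2l2, Lpcat2 and Slc7a5 each turned under at least 1 alternative. Cyp1a2, the hepatic CYP1 enzyme, was too low to test.

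**Figure D1:**
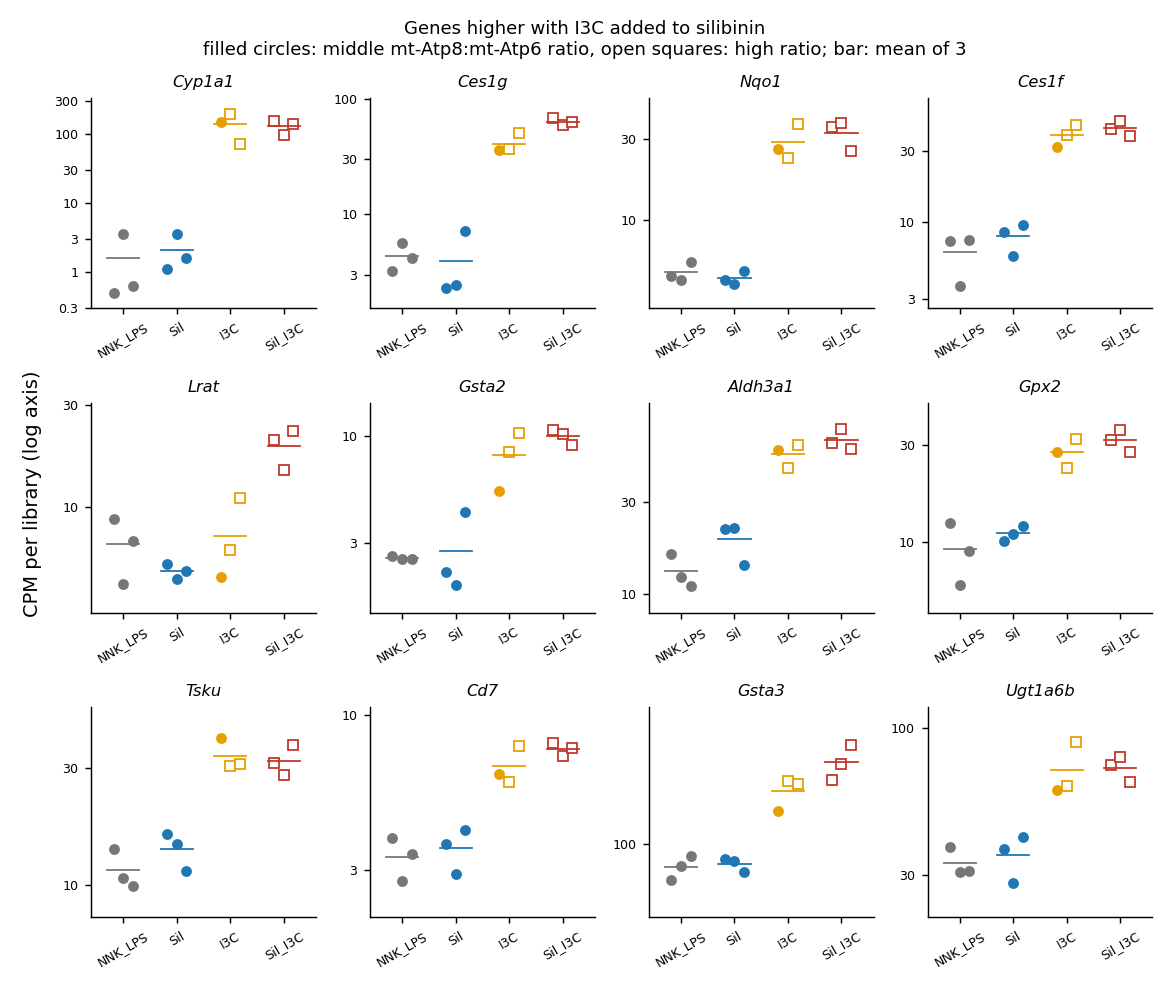
CPM per library on log axes for the 12 called genes with the highest log2 fold change under the naming rule, in tumours without a dietary agent (NNK_LPS), with silibinin (Sil), with indole-3-carbinol (I3C) and with both (Sil_I3C). Filled circles are libraries of the middle mt-Atp8:mt-Atp6 ratio class, open squares those of the highest class, and bars are means of 3 libraries; every Sil_I3C library lies above every Sil library, and Lrat is the panel in which the I3C libraries (4.66 to 10.9 CPM) overlap those of NNK_LPS.

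The NRF2 target list overlapped the AhR list through Nqo1. Of its 20 genes 5 were called higher (Nqo1, Gpx2, Gstm1, Cbr3, Srxn1) and 0 lower, with a median log2 fold change of 0.25. The count was 3 without any 1 of Sil 2, Sil 3 or the Sil_I3C libraries, 2 with only the compared groups in the fit and 0 with the class term. Gpx2, an epithelial glutathione peroxidase, rose from 10.2, 10.9 and 12.1 CPM in Sil to 31.7, 35.4 and 27.8 CPM in Sil_I3C (2.86-fold, 1.51 ± 0.19, adjusted p = 0.000715). Gstm1 rose from 244, 240 and 272 CPM to 532, 441 and 462 CPM (1.90-fold, 0.92 ± 0.14, adjusted p = 0.00503). The carbonyl reductase Cbr3 (0.58 ± 0.12) and sulfiredoxin Srxn1 (0.53 ± 0.11) rose less, with adjusted p of 0.0478 and 0.0439.

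Other widely used NRF2 targets were not called. Gsr, glutathione reductase, differed by 0.36 ± 0.08 (adjusted p = 0.0814) and Slc7a11, the cystine transporter, by 0.94 ± 0.34 (adjusted p = 0.316). The subunits of glutamate-cysteine ligase, Gclc and Gclm, differed by 0.02 ± 0.23 and 0.13 ± 0.08, and Hmox1, heme oxygenase, by -0.28 ± 0.12 (adjusted p = 0.390). Gss, glutathione synthetase, was outside the list and was called (0.61 ± 0.11, adjusted p = 0.0161). The edgeR calls in this list were thus on glutathione transfer, peroxide and quinone enzymes, and not on Gclc, Gclm or Hmox1. DESeq2 called 6 of the 20 NRF2 targets. By edgeR 13 had an unadjusted p under 0.05 and 16 were above 0, against 10.9% and 51.8% of all tested genes. Without overlap 11 lay higher and 1 lower, against 7.41% and 7.42% of all tested genes.

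Of the conjugation and hydrolysis enzymes, 28 of 31 were tested, 4 were called higher (Ces1f, Gsta3, Gstm1, Aldh1a1) and 0 lower, with a median of 0.26, a count that was 2 with only the compared groups in the fit, 6 with DESeq2 and 0 with the class term. Ces1f, a carboxylesterase that cleaves ester drugs and lipids, rose from 8.49, 5.85 and 9.52 CPM in Sil to 42.6, 48.6 and 38.2 CPM in Sil_I3C (5.41-fold, 2.44 ± 0.30, adjusted p = 0.000673). Its neighbour Ces1g rose from 2.28, 2.45 and 7.20 CPM to 68.9, 59.7 and 63.3 CPM (16.0-fold, 4.00 ± 0.36, adjusted p = 2.51e-05). Ces1h rose with them at a lower level, from 0.0807 ± 0.0699 to 1.19 ± 0.149 CPM (SD, n = 3) and from 4 to 85 summed counts, while Ces1d, abundant in every library at 503 to 892 CPM, differed by 0.54 ± 0.13 without a call (adjusted p = 0.0954). The 3 called genes lie side by side on GRCm38 chromosome 8, between 93256236 and 93379777. They are close paralogs, and so are the glutathione transferases of 1 class, so counts may have been split between copies.

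Gsta3, an alpha-class transferase, rose from 89.9, 88.4 and 81.8 CPM to 160, 180 and 207 CPM (2.10-fold, 1.07 ± 0.13, adjusted p = 0.000535). Gsta2 rose from 2.15, 1.85 and 4.23 CPM to 10.7, 10.3 and 9.08 CPM (3.65-fold, 1.87 ± 0.30, adjusted p = 0.00814). Aldh1a1, retinaldehyde dehydrogenase, rose from 997, 880 and 906 CPM to 1282, 1587 and 1498 CPM (1.57-fold, 0.65 ± 0.12, adjusted p = 0.0348). Gsta3 and Aldh1a1 were also the only called members, of 11, of the club cell marker list. The list's defining gene Scgb1a1 differed by 0.33 ± 0.19 without a call, and the list summed to 24950 to 28476 CPM in Sil and 27729 to 35159 CPM in Sil_I3C, ranges that overlap. In dissected bulk tumours fewer cells of a type and less RNA per cell cannot be told apart, and the part of club cells in these results was not tested. Of 21 tested P450 genes outside the CYP1 family 0 were called by edgeR and 1 by DESeq2, with 7 at an unadjusted p under 0.05 and a median of 0.13.

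Several called enzymes and transporters outside the lists complete this group; they were chosen after their values were seen, apart from Ugt1a6b. Aox1, aldehyde oxidase, rose from 88.7, 74.6 and 80.5 CPM to 144, 166 and 163 CPM (1.94-fold, 0.96 ± 0.14, adjusted p = 0.00434). Ugt1a6b, a glucuronosyltransferase whose later exons are shared by all Ugt1a genes, was 2.04-fold higher (1.03 ± 0.16, adjusted p = 0.00546). Abcc3, an exporter of glucuronides, was 1.58-fold higher (0.66 ± 0.12, adjusted p = 0.0221), and Entpd5, a nucleoside diphosphatase of the endoplasmic reticulum, 1.70-fold higher (0.76 ± 0.12, adjusted p = 0.00814).

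Of the other higher genes, Lrat stood at 5.41, 4.60 and 5.00 CPM in Sil and 20.5, 14.8 and 22.5 CPM in Sil_I3C (3.85-fold, 1.95 ± 0.39, adjusted p = 0.0439). The call of Lrat was lost under 9 of 14 alternatives, among them leaving out any 1 of the 6 compared libraries. All Sil_I3C libraries were above all Sil libraries and below the normal lung of control mice, which held 64.5, 35.1 and 47.3 CPM. Tsku, a secreted proteoglycan also named tsukushi, rose from 16.1, 14.7 and 11.4 CPM to 31.4, 28.0 and 37.1 CPM (2.29-fold, 1.20 ± 0.20, adjusted p = 0.00892). Cd7, a lymphocyte surface protein, rose from 3.69, 2.93 and 4.11 CPM to 8.02, 7.25 and 7.74 CPM (2.14-fold, 1.10 ± 0.22, adjusted p = 0.0439). Of 14 T cell markers 0 were called by edgeR or DESeq2 and 3 had an unadjusted p under 0.05, while all 14 differences were above 0 (median 0.51), and the list summed to 108 to 213 CPM in Sil and 163 to 339 CPM in Sil_I3C.

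Gm10260 moved with the ratio class also where the diet was the same: within the I3C group it was at 1.49 CPM in I3C 1, of the middle class, and at 5.39 and 5.92 CPM in I3C 2 and I3C 3, of the highest class. The noncoding gene Gm26619, whose span contains Gm10260, was called lower (-0.92 ± 0.14) and stood at 254 CPM in I3C 1 and 161 and 188 CPM in I3C 2 and 3. With the class term the log2 differences of 41 of the 42 called genes kept their sign.

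The 19 lower genes shared no fixed list: none was a member of any list examined. With only the compared groups in the fit, 0 of them were called. Myh13, a myosin heavy chain of extraocular muscle, had the lowest log2 fold change of the genes named by rule and fell from 5.78, 3.64 and 7.02 CPM in Sil to 2.44, 1.14 and 1.60 CPM in Sil_I3C (3.14-fold lower, -1.65 ± 0.30, adjusted p = 0.0228). Rbp7, a retinol-binding protein below the level for that rule, was at 1.35, 1.43 and 1.31 CPM in Sil and at 0.344, 0.365 and 0.260 CPM in Sil_I3C, from 68 and 23 summed counts. Ppp1r1b, which encodes the phosphatase inhibitor DARPP-32, fell from 20.9, 16.2 and 18.0 CPM to 9.13, 6.48 and 10.1 CPM (2.14-fold lower, -1.10 ± 0.21, adjusted p = 0.0367). The groups were separate for each gene. Counts per library were 6 to 24 for Rbp7, low enough that 1 library moves the mean. They were 25 to 118 for Myh13 and 142 to 339 for Ppp1r1b.

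Trf, transferrin, was the most abundant lower gene, at 1213, 857 and 1212 CPM in Sil and 594, 572 and 518 CPM in Sil_I3C (1.95-fold lower, -0.96 ± 0.19, adjusted p = 0.0439). It stood at 401 ± 24.4 CPM (SD, n = 3) in control lung and at 1078 ± 306 CPM in NNK_LPS. Prss8, the membrane serine protease prostasin, fell from 152, 130 and 148 CPM to 97.3, 88.2 and 87.0 CPM (1.58-fold lower, -0.66 ± 0.12, adjusted p = 0.0202). Klk13, a kallikrein-type protease, was 2.22-fold lower (-1.15 ± 0.22, adjusted p = 0.0367), and Atp6v1c2, a subunit of the vacuolar proton pump, 1.45-fold lower (-0.53 ± 0.10, adjusted p = 0.0274).

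Beside these genes, 0 of 17 alveolar type 2 cell markers were called by edgeR, 4 by DESeq2, 1 with the replicate block and 2 without Sil 2, with 12 at an unadjusted p under 0.05, and 0 of 17 differences were above 0. The median was -0.46, the smallest adjusted p was 0.0868 (Slc34a2, -0.64 ± 0.15), and the list summed to 57499, 47510 and 76022 CPM in Sil and to 42561, 42071 and 40565 CPM in Sil_I3C. The sums did not overlap, and their part in the fall of Trf, Prss8 and the others was not tested. In I3C against NNK_LPS the median of this list was -0.51.

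**Figure D2:**
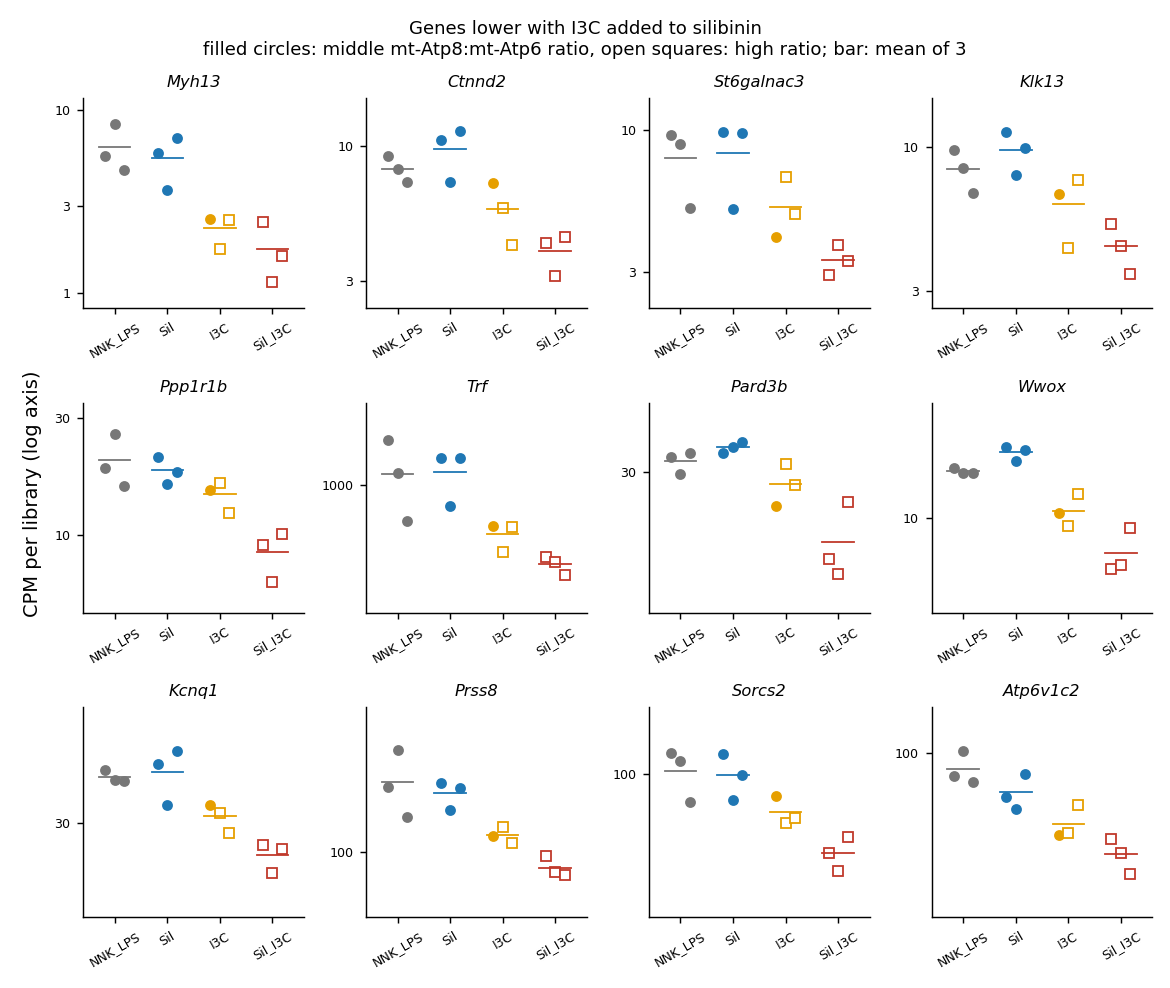
CPM per library on log axes for the 12 called genes with the lowest log2 fold change under the naming rule, in the same 4 groups and with the same symbols and mean bars. Every Sil_I3C library lies below every Sil library, and the I3C libraries mostly lie between (Trf 614 to 740 CPM in I3C against 518 to 594 CPM in Sil_I3C).

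Many of the lower genes were long, and the others spanned 4.43 kb (Prss8) to 44.5 kb (Myh13). The median span of the 19 on GRCm38, from the first to the last annotated base, was 353 kb, against 15.9 kb for the 23 higher genes and 22.5 kb over the 15349 tested genes with a known span. Of the 19, 11 spanned 300 kb or more, a limit chosen after the values were seen, against 0 of the 23 higher genes and 2.53% of tested genes. The 11 included Wwox, an oxidoreductase gene at a common fragile site, which fell from 15.3, 14.0 and 14.9 CPM to 7.41, 7.57 and 9.43 CPM (1.81-fold lower, -0.86 ± 0.13, adjusted p = 0.00546). Ctnnd2, delta-catenin, fell from 10.5, 7.29 and 11.5 CPM to 4.20, 3.15 and 4.46 CPM (2.48-fold lower, -1.31 ± 0.21, adjusted p = 0.00626). Pard3b, a cell polarity gene, fell from 34.1, 35.7 and 37.0 CPM to 16.5, 14.9 and 24.4 CPM (1.91-fold lower, -0.94 ± 0.14, adjusted p = 0.00434).

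Kcnq1, a potassium channel, fell from 42.6, 33.4 and 45.8 CPM to 26.3, 22.3 and 25.7 CPM (1.64-fold lower, -0.71 ± 0.10, adjusted p = 0.00186). St6galnac3, a sialyltransferase, and Sorcs2, a sorting receptor, were 2.46-fold and 1.54-fold lower (adjusted p of 0.0492 and 0.0270). Exoc4, of the exocyst, had the smallest adjusted p among the lower genes (0.000568) with a difference of only 1.42-fold (-0.51 ± 0.06). The remaining long genes, chosen after their values were seen, were Nbea (-0.47 ± 0.08), Lpp (-0.41 ± 0.08), Vwa8 (-0.34 ± 0.07) and 1700112E06Rik (-1.03 ± 0.17).

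Long genes as a group also lay lower. The 389 tested genes of 300 kb or more had a median log2 difference of -0.14 (quartiles -0.35 and 0.11), and 64.8% of them were below 0, against 48.2% of all tested genes. Their median deviation from the mean of the 12 libraries of the Sil, Sil_I3C, I3C and NNK_LPS groups, in log2 CPM, was 0.047, 0.038 and 0.044 in Sil and -0.108, -0.176 and -0.055 in Sil_I3C. It was 0.095, 0.083 and 0.035 in I3C, where the first library is of the middle class and the others of the highest, and the I3C 2 and 3 mean minus I3C 1 had a long-gene median of -0.04. In NNK_LPS it was 0.053, -0.048 and 0.071, so NNK_LPS 2 lay next to Sil_I3C 3. Outside these 4 groups it was 0.240, 0.249 and 0.282 in control lung and 0.146, 0.269 and 0.168 in the group given NNK without LPS. In the group given LPS without NNK it was -0.269, -0.253 and -0.253, further below 0 than in Sil_I3C. With the class term the long-gene median of the comparison was -0.14. For the 1618 genes of 100 to 300 kb the median of the comparison was 0.01.

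**Figure D3:**
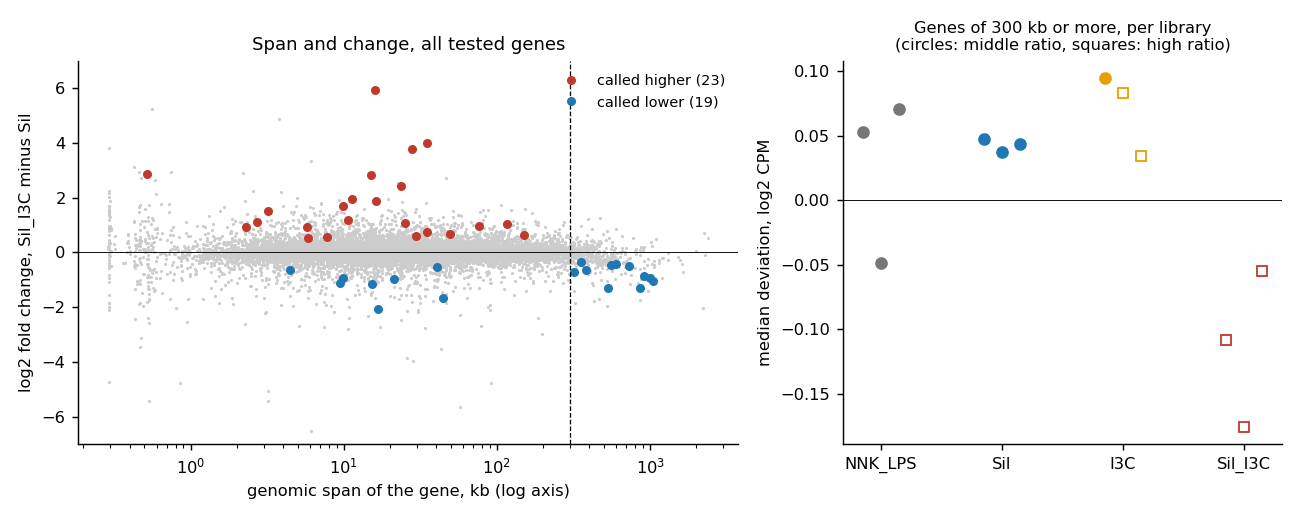
Left, log2 fold change of Sil_I3C minus Sil against genomic span in kb (log axis) for tested genes, with the 23 higher genes in red, the 19 lower genes in blue and a dashed line at 300 kb. Right, the median deviation in log2 CPM of genes of 300 kb or more in each library (circles middle ratio class, squares highest class); the 3 Sil_I3C libraries lie at -0.055 to -0.176, below the Sil and I3C libraries, and NNK_LPS 2 lies next to the highest of them at -0.048.

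The same addition was available without silibinin, as I3C against NNK_LPS, which shares no library with the comparison above. It does share part of the class and depth shift, since NNK_LPS was of the middle class and the deeper I3C 2 and I3C 3 of the highest. There 193 genes (1.22%) were higher and 125 (0.793%) lower, a count that ran from 5 with only those 2 groups in the fit, 21 without NNK_LPS 2, 40 without I3C 1 and 35 without I3C 3 to 794 without NNK_LPS 1 and 1042 with DESeq2. Of the 42 genes called with silibinin, 24 were called in the same direction there (19 higher, 5 lower) and 0 in the opposite one, 57.1% of the 42 and 7.55% of the 318. The sign was the same for all 42. The matching share over all tested genes was not computed, so this count has no background to be read against. With the ratio-class term 60 genes were called in I3C against NNK_LPS, 23 of them among the 318. Cyp1a1 rose from 0.504, 3.61 and 0.626 CPM in NNK_LPS to 149, 198 and 71.4 CPM in I3C (log2 fold change 6.50 ± 0.86), Nqo1 by 2.52 ± 0.24 and Aldh3a1 by 2.03 ± 0.19. Cyp1b1 (2.19 ± 0.32, adjusted p = 0.00365), Ahrr (1.97 ± 0.42, adjusted p = 0.0317) and Gsta1 (1.75 ± 0.40, adjusted p = 0.0365), which had no call with silibinin, were called without it.

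Within the middle ratio class only I3C 1 could be set against NNK_LPS. I3C 1 was above all 3 NNK_LPS libraries in 22 of the 23 higher genes, the exception being Lrat, and in 34% of all tested genes. It was below all 3 in 15 of the 19 lower genes and in 29.7% of all tested genes. In a fit with I3C 1 as a group of its own, assumed to vary like the other groups, 85 genes were called, among them 8 of the 23 higher and 1 of the 19 lower genes. Cyp1a1 was higher there by 6.59 ± 0.97 (adjusted p = 0.0104) and Cyp1b1 by 2.55 ± 0.39 (adjusted p = 0.0104).

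No gene showed a called difference between the 2 additions. The difference of the effects, with silibinin minus without, was called for 0 genes (0%) by edgeR, with 1450 at an unadjusted p under 0.05 and a smallest adjusted p of 0.346. DESeq2 called 21 (5 higher, 16 lower), and edgeR without NNK_LPS 1 called 10. For Cyp1a1 the difference was -0.55 ± 1.19 (adjusted p = 0.906) and for Cyp1b1 -0.93 ± 0.44 (adjusted p = 0.543). Lrat had one of the larger differences among the called genes, 1.80 ± 0.54 (adjusted p = 0.454), with I3C at 4.66, 6.26 and 10.9 CPM and NNK_LPS at 8.75, 4.33 and 6.89 CPM. With these standard errors, the absence of a call does not show that the effects were alike.

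The genes with the smallest p on the lower side of that difference included the small GTPase Rac3 (-0.62 ± 0.12, adjusted p = 0.346), the synaptic scaffold Shank2 (-0.99 ± 0.19), the teneurin Tenm4 (-2.03 ± 0.43), the peptide receptor Vipr1 (-0.91 ± 0.19) and Lrrc26 (-1.25 ± 0.26), a channel subunit. Nppa, the atrial natriuretic peptide, had -6.13 ± 1.11 (adjusted p = 0.346), from 4.04, 9.52 and 4.64 CPM in I3C and at most 0.861 CPM in each library of the other 3 groups. The 12 heart muscle markers, Nppa among them, summed to 410, 597 and 480 CPM in the same I3C libraries and to 82.8 to 294 CPM in those groups, and their part in the Nppa value was not tested. On the higher side were Rnf114 (0.50 ± 0.12), Stx16 (0.42 ± 0.10), Fcho2 (0.48 ± 0.11), Tmem55a (0.66 ± 0.16), Zbtb18 (0.41 ± 0.10) and Lypla1 (0.41 ± 0.10), with adjusted p from 0.421 to 0.454.

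**Figure D4:**
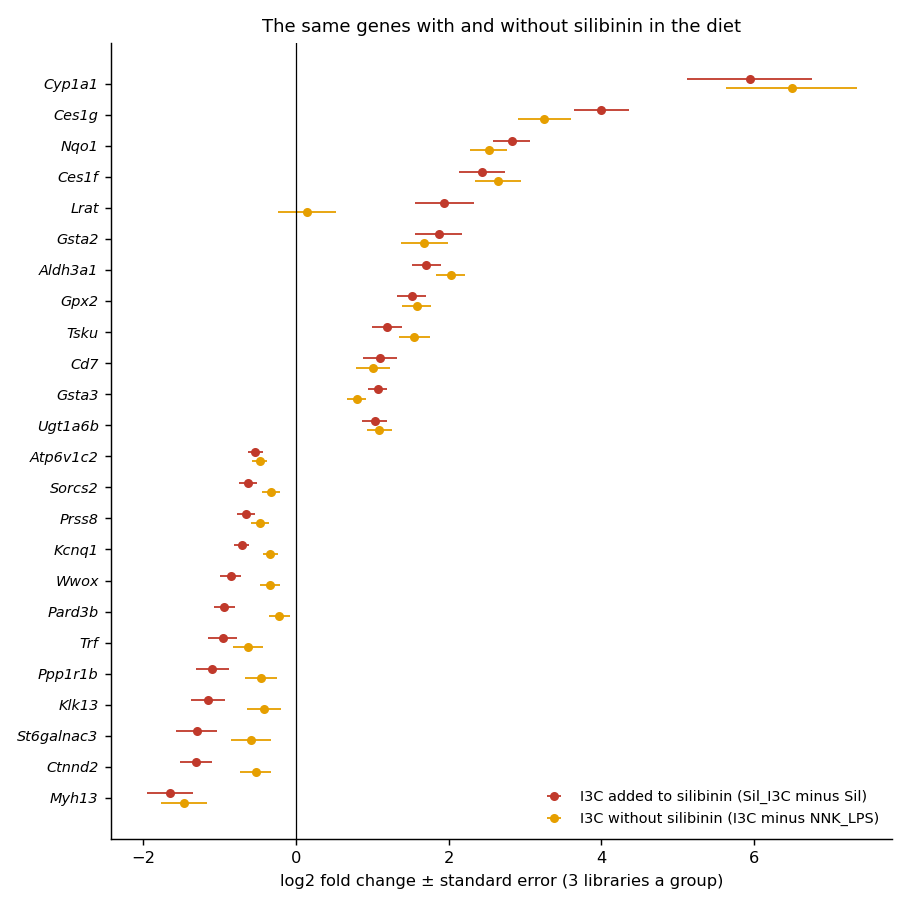
Log2 fold change (points) and standard error (bars) of 24 called genes when indole-3-carbinol was added to silibinin (red, Sil_I3C minus Sil) and when it was given without it (orange, I3C minus NNK_LPS), 3 libraries in each group. All pairs lie on the same side of 0, and Lrat has the widest gap among the higher genes (1.95 against 0.14).

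Apart from the lists of xenobiotic metabolism and the club cell list, no list had a called gene in the edgeR fit, but some lists lay to one side. All 17 genes of the interferon-gamma response were above 0, with a median log2 difference of 1.19 and a smallest adjusted p of 0.230. By edgeR and by DESeq2 0 were called, and 12 had an unadjusted p under 0.05, against 10.9% of all tested genes. They summed to 772, 1366 and 859 CPM in Sil and 1489, 2894 and 1933 CPM in Sil_I3C, which did not overlap, with Sil_I3C 2 the highest. Gbp2, a guanylate-binding protein, stood at 69.8, 127 and 75.9 CPM and 143, 310 and 133 CPM (1.10 ± 0.34, adjusted p = 0.230), and Cxcl9, a T-cell attracting chemokine, at 28.7, 75.5 and 10.8 CPM and 70.8, 101 and 11.6 CPM (0.67 ± 0.72, adjusted p = 0.781). For Cxcl9 the groups overlapped. All 23 interferon-stimulated genes and all 15 genes of MHC class I and antigen processing were also above 0, with medians of 0.62 and 0.46, and 12 and 4 of them had an unadjusted p under 0.05. By DESeq2 1 of the 23 and 0 of the 15 were called. In I3C against NNK_LPS the medians were -0.08 for the interferon-gamma response, -0.04 for the interferon-stimulated genes and 0.02 for MHC class I.

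Neutrophil markers lay the other way, with 1 of 14 above 0 and a median of -1.12, and 0 were called by edgeR (smallest adjusted p = 0.266, 3 at an unadjusted p under 0.05) and 1 by DESeq2. They summed to 639, 293 and 141 CPM in Sil and 155, 190 and 88.0 CPM in Sil_I3C, so the groups overlapped and Sil 1 was the highest. S100a9, a calprotectin subunit, stood at 167, 42.5 and 38.0 CPM in Sil and 16.1, 20.6 and 18.2 CPM in Sil_I3C (-2.17 ± 0.90, adjusted p = 0.378). Alveolar macrophage markers had a median of -0.50 and mucous cell markers of -0.68, without a call. In I3C against NNK_LPS the medians were 0.65 for neutrophil, -0.32 for alveolar macrophage and 1.74 for mucous cell markers. Neutrophil and mucous markers thus lay on opposite sides in the 2 comparisons. The medians were -0.07 for the 34 genes of cell cycle and mitosis, -0.05 for 16 p53 targets and -0.04 for 18 RAS-MAPK feedback genes, against 0.01 over all genes. Of the members 7 of 34, 5 of 16 and 6 of 18 were above 0, against 51.8% of all tested genes. In each list 0 were called by edgeR or DESeq2, and 1, 2 and 2 had an unadjusted p under 0.05, against 10.9% of all tested genes.

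**Figure D5:**
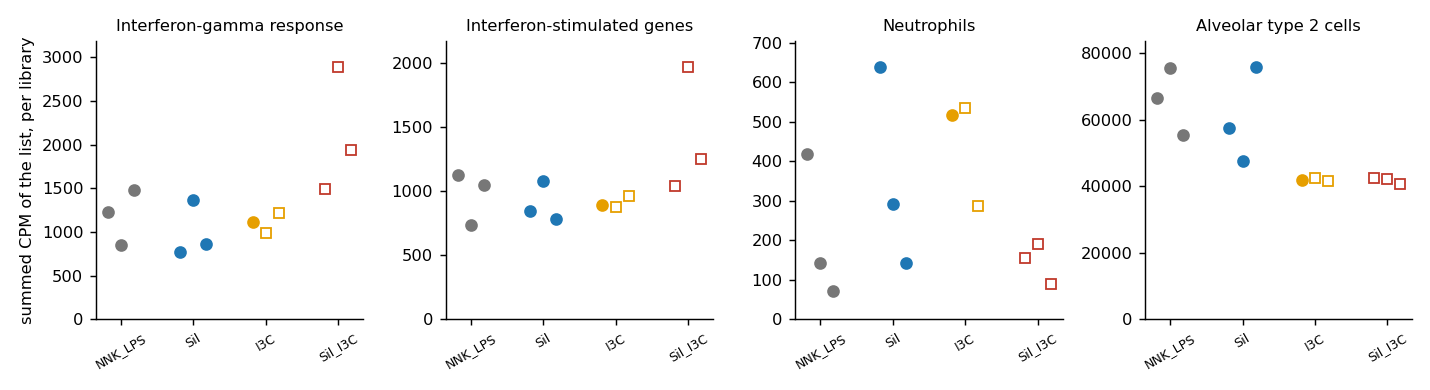
Summed CPM per library (linear axes from 0) of 4 gene lists in tumours of the NNK_LPS, Sil, I3C and Sil_I3C groups, with circles for the middle and squares for the highest ratio class. The interferon-gamma sum is 1489 to 2894 CPM in Sil_I3C against 772 to 1366 CPM in Sil, the neutrophil sums overlap, and the alveolar type 2 sum is 40565 to 42561 CPM in Sil_I3C and 41709 to 42503 CPM in I3C.

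The term for the ratio class was estimable through the LPS and I3C groups, which span classes, and left 12 residual degrees of freedom. Only the I3C group has libraries of both the middle and the highest class. The adjustment of this comparison therefore rests on I3C 1 against I3C 2 and I3C 3, with a single library on the middle side. With it 0 genes were called, 755 had an unadjusted p under 0.05, and the smallest adjusted p was 0.0766. Over the 42 genes the median standard error rose from 0.164 to 0.267 and the median size of the log2 difference went from 1.00 to 0.82. Cyp1a1 had 6.10 ± 1.26 with the term, Ces1g 3.73 ± 0.56, Nqo1 2.63 ± 0.41 and Aldh3a1 1.80 ± 0.32, each close to its value without it. Differences were smaller with the term for Lrat (1.06 ± 0.70), Gm10260 (0.95 ± 0.42) and Ctnnd2 (-0.77 ± 0.35). They were also smaller for the xenobiotic genes Gsta2 (1.07 ± 0.46), Gsta3 (0.77 ± 0.22), Gstm1 (0.61 ± 0.23), Ugt1a6b (0.69 ± 0.27) and Aldh1a1 (0.42 ± 0.23). Larger differences were seen for others, such as Pard3b (-1.25 ± 0.25), Tsku (1.56 ± 0.34) and Srxn1 (0.80 ± 0.18).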

How the data were processed

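The deposited table holds whole-number counts per gene symbol for 21 mouse libraries, prepared with the TruSeq RNA kit per the labels' protocols and tied to mm10 per the submitters' processing notes. Not given in the sources used here are aligner, counter, annotation and strand handling, so counts of paralogs and overlapping genes are uncertain. The analysis used edgeR 4.0.16 under R 4.3.3: trimmed mean of M-values scaling, filterByExpr with a minimum count of 10 (15770 of 38924 symbols; 16756 had 0 counts in all libraries), a robust quasi-likelihood fit of all 7 groups of 3 libraries with 14 residual degrees of freedom, and Benjamini-Hochberg adjustment over all genes tested. The call threshold was an adjusted p under 0.05, and errors of log2 values are standard errors. Totals ran from 13.3 to 25.3 M counts.

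The comparison, the gene lists and the mt-Atp8 ratio limits were chosen with earlier results of these data known. The text names the 12 highest and 12 lowest called genes by log2 fold change that did not overlap and had a mean of at least 1 CPM over the 6 libraries, leaving out uncharacterised models. It also names up to 3 called members of each list, every AhR list member but 1, which like 1 called gene is not reported here, and the 6 genes with the smallest adjusted p of each sign for the difference of effects; levels and models were filtered alike there. No gene was called with the class term. Other names were chosen after their values were seen. Lists are described by counts and medians without a list test. The fit was checked on simulated counts. Alternatives were relative log expression size factors, no low-count filter, DESeq2 1.42.0, fits of fewer groups, the replicate number as a block, a ratio-class term, thinning to the shallowest library and leaving out each library; I3C 1 alone was added after seeing the data. Gene spans and upstream sequences are from RefSeq on GRCm38.p6.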

Additional observations from a re-analysis of the deposited data

How the results depend on the processing

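Among 15770 genes the 42 calls became 179 with DESeq2, which held all 42, 25 with the 5 tumour groups, 9 with the compared groups, 0 with the ratio-class term and 21 to 64 on leaving out 1 library. With the replicate block there were 68, of which 40 were among the 42; the same-numbered libraries correlated at 0.037, 0.246 and 0.356, so the number was not taken to pair samples. Relative log expression size factors gave 42, no filter 41 and thinning 39 (35 of the 42). The difference of effects had 0 calls except 21 with DESeq2 and 0 to 10 on leaving out 1 library. I3C against NNK_LPS had 318 calls, 1042 with DESeq2, 26 with the tumour groups, 5 with the compared groups, 60 with the class term, 85 with I3C 1 alone, an alternative added after seeing the data, and 21 to 794 on leaving out 1 library. Signs turned with the class term for Ahr (-0.00166), Nfe2l2 (-0.0561), Arnt (0.0459) and Slc7a5 (0.588). On leaving out 1 library they turned for Lpcat2 (-0.121 to 0.407), Nfe2l2 (-0.0321 to 0.0866), Arnt (-0.0757 to 0.0112) and Slc7a5 (-0.436 to 0.0227); the cause was not tested. None of these 5 genes was a called gene. No setting was left out. Depth limits the genes under about 1 CPM, such as Ces1h and Rbp7.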

Other observations

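Clock genes, which carry the daily rhythm of most tissues, had 0 called members of 15 tested by edgeR, 3 by DESeq2, 1 without Sil_I3C 1, 10 at an unadjusted p under 0.05 and a median log2 difference of -0.51 in Sil_I3C against Sil. Dbp, an output factor of the clock, stood at 54.0, 63.2 and 22.3 CPM in Sil and at 14.0, 4.42 and 2.81 CPM in Sil_I3C (-2.70 ± 0.69, adjusted p = 0.143 by edgeR). The repressor Nr1d1 stood at 169, 140 and 86.5 CPM and at 66.3, 29.5 and 16.1 CPM (-1.82 ± 0.43, adjusted p = 0.105). Npas2, an activator, stood at 6.58, 4.60 and 13.3 CPM and at 17.4, 24.8 and 23.8 CPM (1.43 ± 0.45, adjusted p = 0.232), and Arntl, the core activator, differed by 0.88 ± 0.29 (adjusted p = 0.249). The groups did not overlap for these 3 genes with values by library, and Sil 3 was the Sil library nearest to Sil_I3C in each. Of the 15 tested clock genes 2 lay higher and 3 lower without overlap, against 7.41% and 7.42% of all tested genes. In I3C against NNK_LPS the median of the clock list was 0.10. The hour of tissue collection is not given in the sources used here.

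All 8 tested lymphoid chemokine and receptor genes were above 0 (median 0.72, smallest adjusted p = 0.597), and 0 of 10 adipocyte markers were above 0 (median -0.49, smallest adjusted p = 0.369). In I3C against NNK_LPS the medians of these lists were 0.95 and 2.24. Cyp26b1, which breaks down retinoic acid, was at 9.84, 3.52 and 3.09 CPM in Sil and at 29.0, 23.9 and 42.8 CPM in Sil_I3C (2.54 ± 0.77, adjusted p = 0.219). The groups did not overlap, as in 14.8% of all tested genes, and the difference was not called. Among ribosomal protein genes, Rpl13 lay just outside the threshold (-0.81 ± 0.17, adjusted p = 0.0515), at 96.6, 88.9 and 120 CPM in Sil and 61.8, 68.6 and 43.9 CPM in Sil_I3C.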
